A study of Homo sapiens with 18 samples.

Results

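The knockdown of RAD21 in A549, a lung adenocarcinoma cell line, was described across all genes, by chromosomal neighbourhood, by gene biotype and by gene group. It comprised 6 of the 18 libraries of the study, 3 made from A549 cells carrying a lentiviral short hairpin RNA against RAD21 (shRAD21) and 3 from A549 cells carrying a control hairpin (shNC). The members are the counted columns of those libraries, chosen by their labels alone. The study also knocked RAD21 down in H358, another lung adenocarcinoma line (6 libraries), and overexpressed RAD21 in A549, which is not analysed here. All cells were grown in RPMI 1640 medium with 10% fetal bovine serum. The hairpin sequence, the time after infection and whether replicates were separate cultures are not given in the labels, so p-values reflect only how these libraries varied, which may be technical. Every A549 library was made from one cell line, and the shNC cells carry the lentiviral vector as the shRAD21 cells do.

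RAD21 is the kleisin subunit of cohesin, the ring-shaped complex that it forms with SMC1A, SMC3 and a STAG subunit. Cohesin holds sister chromatids together until anaphase, when separase cuts RAD21. In interphase, cohesin loaded by NIPBL and MAU2 extrudes chromatin loops that commonly stop at CTCF sites, and WAPL with PDS5A or PDS5B takes it off again. Loss of cohesin is known to dissolve these loops, so neighbouring genes are a natural unit in which to read a knockdown.

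RAD21 (chromosome 8, 116845935 to 116874866, minus strand, hg38) was at 256.9, 252.9 and 254.6 counts per 1000000 (CPM) in the 3 shNC libraries and at 128.9, 131.8 and 101.1 CPM in the 3 shRAD21 libraries. The groups did not overlap, and the shRAD21 mean was 47.3% of the shNC mean. The log2 fold change was -1.08 (SE 0.08), with an adjusted p of 2.99e-08 in edgeR's quasi-likelihood test with Benjamini-Hochberg adjustment. An exact two-sided permutation test of the 6 values gave p = 0.1, the smallest that 3 against 3 libraries allow. Of the 21 genes tested from the list of cohesin subunits and regulators, 6 were higher and 3 lower. Correction for GC content and exon length (described with the libraries) left 3 higher and 2 lower. Leaving out shNC replicate 1, shRAD21 replicate 1 or shRAD21 replicate 2 also left 3 higher, and leaving out shRAD21 replicate 3 gave 12 higher and 5 lower. The 3 that were higher with and without the correction were STAG1 (log2 fold change 0.55, corrected 0.35), PDS5B (0.50, corrected 0.28) and CTCF (0.30, corrected 0.16). CTCF lost its call when the correction was combined with a replicate block (adjusted p = 0.0546). SMC1A (0.06) and SMC3 (0.13), the ring's other core proteins, missed the threshold.

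The 6 A549 libraries held 15155077 to 18446250 counts, with overlapping ranges in the 2 groups. KRT7, KRT8 and KRT18, keratins of simple epithelia, were at 1279 to 8890 CPM, and KRT19, on the same marker list, was at 7.762 to 17.92 CPM. Of 6 immune markers, CD3E and MS4A1 were at 0 in all 6 libraries, and PTPRC, the pan-leukocyte gene, reached at most 0.2726 CPM. CD14, a monocyte marker, was at 4.109 to 4.88 CPM with shNC and 2.59 to 3.425 CPM with shRAD21 (log2 fold change -0.57, adjusted p = 0.0437), a call lost after the correction described below (-0.38, adjusted p = 0.211) and without any 1 library (0.0507 to 0.132). Among neuroendocrine markers, INSM1 was at 0 in all 6. CHGA was at 0.5505 to 2.743 CPM and passed the test only without shRAD21 replicate 3. SYP, the synaptophysin gene, went from 8.54, 7.762 and 6.944 CPM to 2.63, 1.841 and 3.271 CPM and was called lower (-1.59). EPCAM, an epithelial adhesion gene, rose from between 3.188 and 4.282 CPM to between 8.928 and 12.17 CPM. The part of other cell types in the results was not tested. CDKN2A and CDKN2B, which are deleted in A549, were likewise at 0. The 3 shRAD21 replicates did not resemble each other equally. Over 11776 genes with a mean of at least 4 CPM, the median absolute log2 difference between shRAD21 replicate 3 and replicates 1 and 2 was 0.28 and 0.27, against 0.08 to 0.09 for every other pair of replicates within a group. The mitochondrial genome took 7.45% of counts in shRAD21 replicate 3, 10.3% and 9.75% in the other shRAD21 libraries, and 8.59% to 8.94% with shNC.

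The difference between the shRAD21 libraries followed base composition. In shRAD21 replicates 1 and 2, the decile of genes with the lowest GC content in their merged exons (23.1% to 38.9%) had a median log2 difference from the shNC mean of 0.28 and 0.28. The decile with the highest GC content (61.2% to 83.9%) had -0.39 and -0.37 in the same libraries. In replicate 3 the medians were -0.07 and 0.07, so it lacked this slope, and the shNC libraries stayed within 0.03 of their own mean at both ends. Across 18927 genes, the rank correlation of log2 fold change with GC content was -0.33, a value across genes, which are not replicates. It was -0.00575 after each library had been corrected for its own trend on GC content and exon length. The GC content of the promoter window was hardly related to the change (rho -0.0626 over 11556 protein-coding genes). Values of single genes below are as counted, and the corrected value stands beside them where it was smaller or larger by over 1.5 times or ended the call. After correction the replicate 3 pairs still differed more (0.14 and 0.13) than the others, and the source of the slope was not tested.

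**Figure D1:**
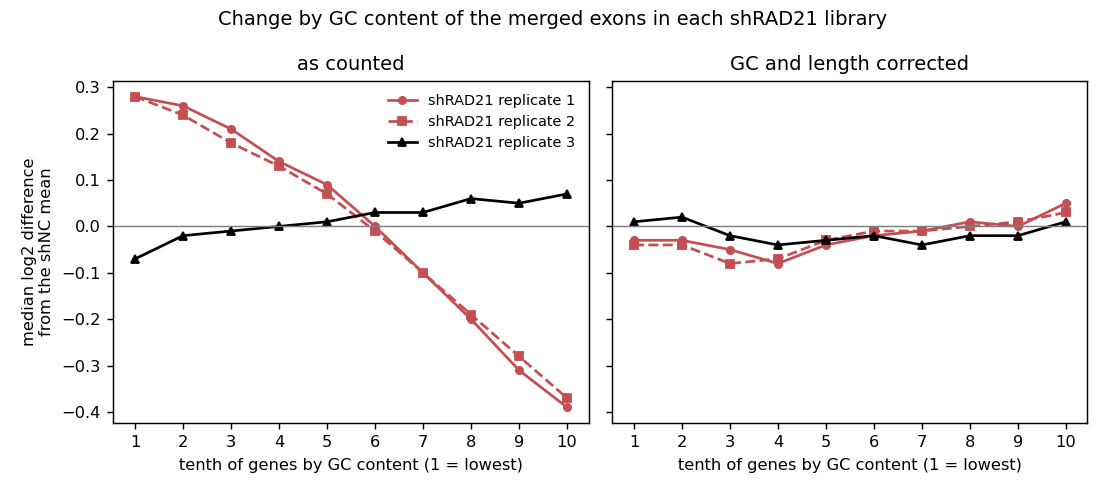
Median log2 difference from the shNC mean (vertical axis) in 10 equal groups of genes ordered by GC content (horizontal axis), for each shRAD21 library, as counted (left) and corrected (right). Replicates 1 and 2 run from 0.28 in the lowest decile to -0.39 and -0.37 in the highest, replicate 3 stays between -0.07 and 0.07, and the corrected lines lie near 0.

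Of 58735 genes counted, 18939 had enough counts to be tested, and 4780 of these (25.2%) changed at an adjusted p under 0.05. More genes rose (2721, or 14.4%) than fell (2059, or 10.9%), but with no filter on low counts 2407 rose and 2552 fell. At least 2-fold, 676 rose (3.57%) and 491 fell (2.59%). The correction also turned this balance around, with 2773 genes higher (14.6%) and 2872 lower (15.2%), or 29.8% in all, but hardly touched the larger changes: 660 of the 676 and 472 of the 491 stayed called, and corrected values gave 676 (3.57%) and 481 (2.54%). In all, 2102 genes rose and 1771 fell in both analyses, and no gene called in one direction was called in the other. As counted, the groups did not overlap in 6186 of the genes tested (32.7%). They did not overlap in 91% of the genes called higher and in 88.1% of those called lower. Without shRAD21 replicate 3, 4537 genes (23.2%) rose and 3893 (19.9%) fell as counted, and 3136 (16%) and 3352 (17.1%) with the correction. Genes with low levels were called less often: of 4392 genes under 1 CPM with shNC, 306 rose and 95 fell, and of 2323 genes at 100 CPM or more, 482 rose and 407 fell.

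Runs of neighbouring genes changed together. A neighbourhood was taken as at least 3 consecutive tested genes, with starts no more than 500 kb apart, that were all called in one direction with an absolute log2 fold change of at least 0.5, a level that 2611 genes (13.8%) reached. There were 37 neighbourhoods that rose, with 126 genes, and 32 that fell, with 103 genes. With no filter on low counts there were 17 and 27, and with a filter of 10 CPM 22 and 14. Those that rose were longer (median 208 kb, up to 6 genes) than those that fell (72.6 kb, up to 5 genes). All members stayed called after the correction in 34 of the 37 and in 26 of the 32. Rebuilt from the corrected values, there were 28 and 23. The number of falling runs depended on single libraries: there were 20, 21, 14 and 15 without shNC replicates 2 and 3 and shRAD21 replicates 1 and 2 in turn. Without shRAD21 replicate 3 there were 57 that rose and 91 that fell as counted, and 35 and 27 corrected.

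The run with the largest median rise was CEACAM7, CEACAM5 and CEACAM6 on chromosome 19 (41673307 to 41772208). They encode carcinoembryonic antigen adhesion molecules, which epithelial cells carry on the apical membrane. CEACAM6 went from 9.943, 10.64 and 11.19 CPM to 260.4, 249.9 and 186.7 CPM. CEACAM7 went from 0.183, 0.3346 and 0.4251 CPM to 8.991, 9.906 and 5.998 CPM, and CEACAM5 from 0.305, 0.5353 and 0 CPM to 9.358, 6.921 and 7.088 CPM. In all 3 genes, every shRAD21 library was above every shNC library, as in 91% of all genes called higher. The flanking genes tested on both sides, AC243960.2 (log2 fold change 0.13, adjusted p = 0.895) and RPS19 (-0.19, adjusted p = 0.0959), did not pass the test.

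The promoter windows that RefSeq gives for these 3 genes are shown because members of the run moved together and the windows are poor in CpG, the base pair step at which vertebrate DNA is methylated. Each line runs 5′ to 3′ on the gene's strand and comes from the RefSeq promoter table on GRCh38.p14, with annotated exons left out and each CpG in capitals. CEACAM7 is chr19:41688368-41688520 on the minus strand, CEACAM5 is chr19:41708376-41708584 on the plus strand, and CEACAM6 is chr19:41755280-41755420 on the plus strand. The CEACAM7 and CEACAM6 stretches lie inside the gene as annotated in GENCODE 29, outside its exons. TRIM31 (chr6:30113107-30113340, minus strand) belongs to another rising run, and CACNG6 (chr19:53991387-53991636, plus strand), from a falling run, is shown for contrast. These windows are chosen examples and do not stand for rising and falling runs at large. Both kinds of run held CpG-poor and CpG-rich promoters, counted here in the wider window described further below. Among rising-run members, KIF26A, ITIH5 and CRB3 held 37, 34 and 26 CpG, and GBP3 and UGT1A9 held 0 and 1. Among falling-run members, NFKBID and H19 held 3 and 6 CpG, and APLP1 and TBC1D10A held 36 and 35.
CEACAM7: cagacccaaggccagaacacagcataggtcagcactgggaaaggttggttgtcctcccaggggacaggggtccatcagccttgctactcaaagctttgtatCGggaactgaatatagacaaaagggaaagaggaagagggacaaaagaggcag
CEACAM5: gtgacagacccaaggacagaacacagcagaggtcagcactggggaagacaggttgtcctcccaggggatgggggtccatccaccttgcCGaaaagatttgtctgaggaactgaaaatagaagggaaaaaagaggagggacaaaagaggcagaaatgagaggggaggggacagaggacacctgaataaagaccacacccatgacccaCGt
CEACAM6: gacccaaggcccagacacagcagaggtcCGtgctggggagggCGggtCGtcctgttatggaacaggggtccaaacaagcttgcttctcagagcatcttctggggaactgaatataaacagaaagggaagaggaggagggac
TRIM31: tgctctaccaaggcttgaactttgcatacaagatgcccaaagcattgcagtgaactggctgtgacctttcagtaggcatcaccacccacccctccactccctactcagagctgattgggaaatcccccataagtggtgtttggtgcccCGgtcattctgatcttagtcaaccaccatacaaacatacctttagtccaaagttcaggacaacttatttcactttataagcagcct
CACNG6: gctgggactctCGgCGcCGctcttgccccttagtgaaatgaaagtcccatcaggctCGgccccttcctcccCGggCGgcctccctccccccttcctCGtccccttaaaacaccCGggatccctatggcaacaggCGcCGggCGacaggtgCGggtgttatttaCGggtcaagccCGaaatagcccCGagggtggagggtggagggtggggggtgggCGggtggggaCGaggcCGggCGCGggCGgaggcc
The stretches differ in length (141 to 250 bases) because exons were left out. Over the full 250 bases before the RefSeq start, there was 1 CpG for CEACAM7, 2 for CEACAM5, 5 for CEACAM6 and 1 for TRIM31, against 21 for CACNG6. Of the 27305 windows in the table, 23.6% held at most 2 CpG and 38.7% at most 5, and the median was 11.

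The second rising run was TRIM31, TRIM10 and TRIM15 on chromosome 6 (30102897 to 30172696), E3 ubiquitin ligase genes at the edge of the MHC class I region. TRIM31 went from 1.037, 0.9367 and 1.771 CPM to 13.58, 10.22 and 9.61 CPM (log2 fold change 3.17 with an SE of 0.24, adjusted p = 2.06e-08). TRIM10 (log2 fold change 3.56) and TRIM15 (2.95) rose to at most 0.7497 and 1.101 CPM, levels of a few counts. The next gene, TRIM26, was expressed already, at 43.56 to 51.58 CPM, and rose less (0.50), to 62.67 to 78.86 CPM. The change was thus steep in the genes that were nearly silent with shNC and shallow in the active neighbour.

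The UGT1A run on chromosome 2 held UGT1A9, UGT1A7, UGT1A6, UGT1A2P and UGT1A1, alternative first exons of glucuronosyltransferases that conjugate bilirubin and drugs. UGT1A1 went from 1.037, 0.6691 and 1.275 CPM to 11.99, 9.334 and 7.088 CPM (log2 fold change 3.25). These genes share their last exons, so counts could be split between them. UGT1A2P, which shares none, went from 0.122, 0.2007 and 0.07085 CPM to 1.284, 1.587 and 1.159 CPM.

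On chromosome 1, KYAT3, RBMXL1, GBP3 and GBP1 rose together. GBP1 and GBP3 encode guanylate-binding GTPases that interferons induce. GBP3 went from 0.976, 1.204 and 1.134 CPM to 10.52, 8.89 and 6.611 CPM (log2 fold change 2.98, SE 0.22), and GBP1 from at most 0.3543 CPM to between 2.113 and 2.936 CPM (3.39). KYAT3 (0.55) and RBMXL1 (0.61) changed much less. On chromosome 10, ITIH2, a plasma protein gene known from liver, went from 1.403, 2.208 and 1.417 CPM to 16.51, 13.46 and 12.27 CPM, beside ITIH5 (1.79) and SFMBT2 (0.56). The groups did not overlap in any of these genes, as in 91% of all genes called higher.

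Other runs with the largest rises joined genes of unlike function. On chromosome 6, SLC17A3, a urate transporter gene, went from 2.135, 1.472 and 2.763 CPM to 18.65, 15.62 and 12.68 CPM, with SLC17A1 (log2 fold change 2.06) and TRIM38 (0.51, corrected 0.31). On chromosome 19, CRB3, an apical polarity gene, went from 1.464, 2.275 and 1.771 CPM to 6.3, 9.144 and 8.86 CPM, with DENND1C (1.11, adjusted p = 0.0593 without shNC replicate 1) and AC010503.4 (1.59) inside 18.8 kb. On chromosome 14, KIF26A rose from 14.6 to 15.31 CPM to 25.02 to 35.92 CPM (0.94) between AL359399.1 (2.24) and TMEM179 (2.39), both at most 1.397 CPM. Both ends of that run rest on few counts, and TMEM179 had an adjusted p of 0.101, 0.103 and 0.0919 without shNC replicate 1, shNC replicate 3 and shRAD21 replicate 2.

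A falling run on chromosome 19 included CACNG7, CACNG8 and CACNG6 (53909335 to 54012669). CACNG6, CACNG7 and CACNG8 encode gamma subunits of voltage-gated calcium channels, of which CACNG7 and CACNG8 also escort AMPA-type glutamate receptors. CACNG7 went from 56.61, 52.46 and 55.27 CPM to 3.547, 2.921 and 1.704 CPM (log2 fold change -4.31 with an SE of 0.17, adjusted p = 8.5e-11). CACNG8 went from 30.62, 36.2 and 28.2 CPM to 8.012, 7.366 and 10.56 CPM, and CACNG6 from 21.11, 24.09 and 21.4 CPM to 4.71, 6.731 and 4.703 CPM. MYADM, an expressed gene upstream of CACNG7, was lower by less (-0.34).

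On chromosome 22, SUSD2, GGT5 and POM121L9P fell. SUSD2, a membrane glycoprotein gene, went from 176.2, 171.2 and 177.1 CPM to 48.62, 54.61 and 63.04 CPM (log2 fold change -1.66, SE 0.10). GGT5, a glutathione-cleaving enzyme gene, went from 6.954, 6.156 and 7.794 CPM to 2.385, 2.476 and 4.021 CPM. A separate run on the same chromosome held the pseudogenes CES5AP1 and ZDHHC8P1 with AP000344.2, and another AC004264.2, CASTOR1 and TBC1D10A, where TBC1D10A went from 12.26, 10.1 and 11.12 CPM to 6.361, 3.683 and 5.521 CPM. On chromosome 19, APLP1, an amyloid precursor-like gene, went from 181, 179 and 183.3 CPM to 63.43, 64.58 and 82.74 CPM beside KIRREL2 (-2.18) and NFKBID (-0.54). NFKBID no longer passed after the correction (-0.36, adjusted p = 0.0588), nor as counted without shNC replicate 1 or 2 or shRAD21 replicate 1 or 2 (0.0589, 0.0763, 0.104 and 0.0649). PRODH2, on the far side of KIRREL2, rose (1.87).

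**Figure D2:**
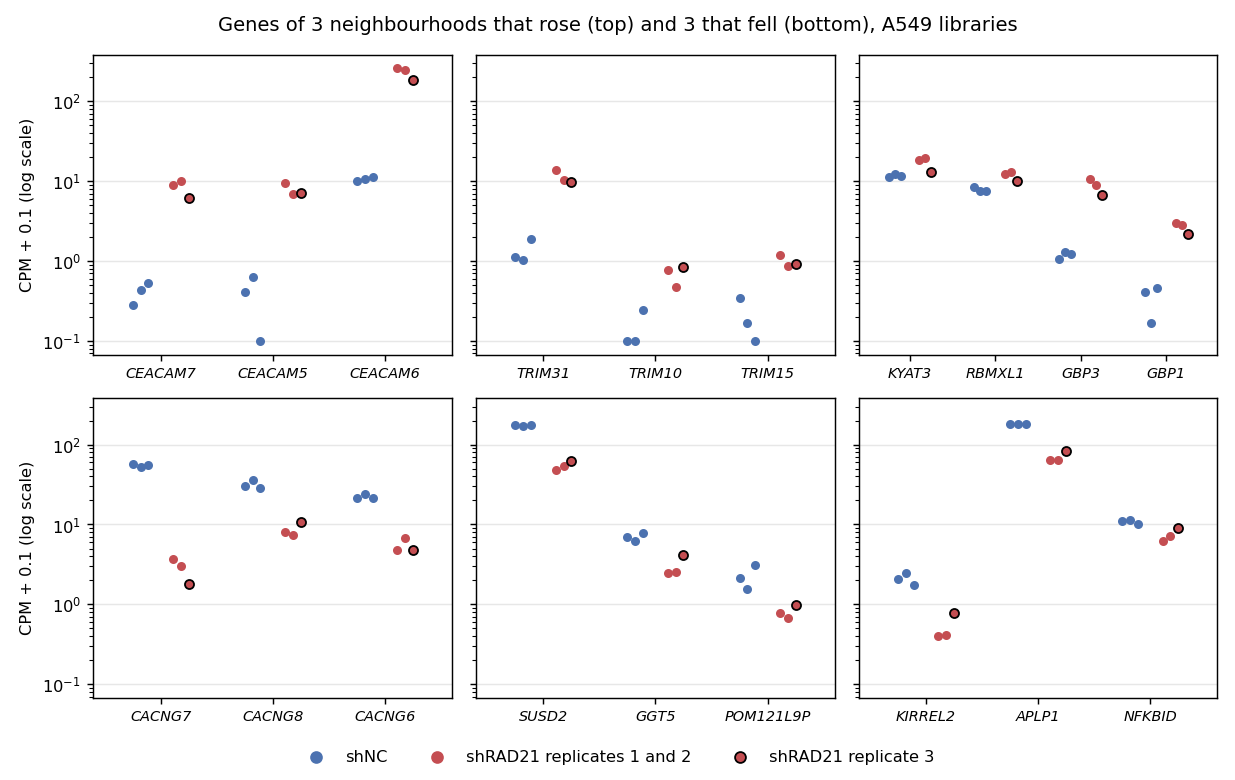
CPM plus 0.1 on a log axis in each A549 library (points) for the genes of 3 neighbourhoods that rose (top) and 3 that fell (bottom). CACNG7 drops from 52.46 to 56.61 CPM to 1.704 to 3.547 CPM while APLP1 drops from 179 to 183.3 CPM to 63.43 to 82.74 CPM.

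The falling runs with the largest median changes rested on genes with few counts. H19, an imprinted noncoding RNA, was at 21.35, 12.04 and 8.219 CPM with shNC and at 6.116, 7.747 and 7.838 CPM with shRAD21 (log2 fold change -0.95, adjusted p = 0.0209), while IGF2 and TH beside it never exceeded 0.3346 CPM. Without shNC replicate 1 or shRAD21 replicate 1, H19 had an adjusted p of 0.235 and 0.0747, and IGF2 and TH lost their call when any 1 of 4 libraries was left out. CP, which encodes the copper-carrying plasma protein ceruloplasmin, went from 49.17, 53.33 and 55.62 CPM to 43.61, 43.12 and 23.99 CPM (-0.51). The fall in CP was thus largest in shRAD21 replicate 3, and its adjusted p was 0.075 and 0.0858 without shNC replicates 2 and 3. Its neighbours CPHL1P and AC093001.1 were under 1 CPM in every A549 library. TRIM55, CRH and RRS1 on chromosome 8 formed a run in which RRS1 overlapped between groups (88 to 101 CPM with shNC, 52.54 to 89.49 CPM with shRAD21). RRS1 and TRIM55 both lost their call without shNC replicate 1 (adjusted p = 0.051 and 0.0992) or shRAD21 replicate 1 (0.0586 and 0.0765).

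Nearby genes agreed in direction more often than distant ones. Of 233 pairs of non-overlapping protein-coding genes with start sites within 20 kb that were both called, 196 (84.1%) changed in the same direction. The share was 78.6% from 20 to 50 kb, 67% from 100 to 200 kb and 57.7% from 2 to 5 Mb, against 51.1% from the numbers called in each direction. GC content is also shared between neighbours. After the correction the share was 67.2% within 20 kb (229 of 341 pairs), 64.1% from 20 to 50 kb, 57.5% from 100 to 200 kb and 52.1% from 2 to 5 Mb, against 50%. The Pearson correlation of log2 fold changes between the members of a pair, over all pairs tested, was 0.214 within 20 kb and 0.039 from 2 to 5 Mb as counted, and 0.152 and 0.0101 corrected. These values describe pairs that share genes and libraries, and carry no test.

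**Figure D3:**
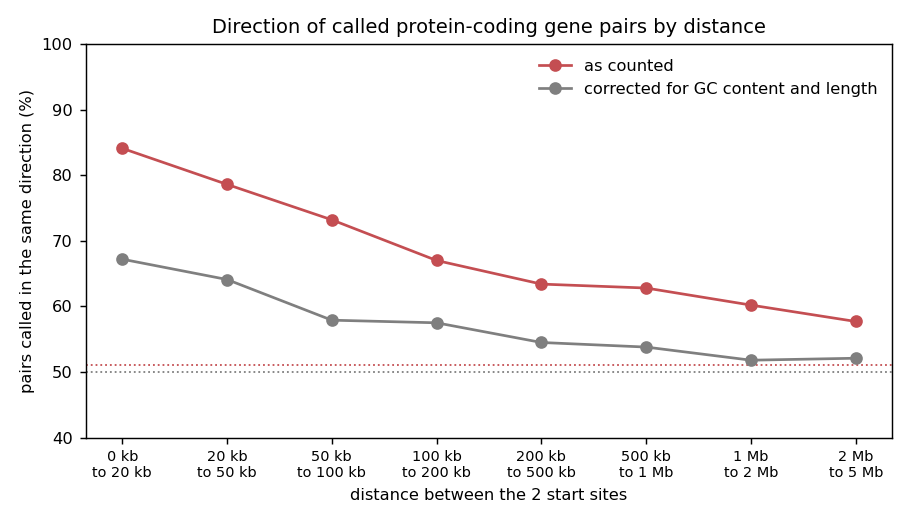
Share of protein-coding gene pairs, both called, that changed in the same direction (vertical axis) by the distance between their start sites (horizontal axis), as counted and corrected. Dotted lines mark the 51.1% and 50% given by the numbers of calls in each direction, and both curves fall towards them with distance.

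Whole chromosomes differed mainly in step with their GC content. Chromosome 19, with the most GC-rich genes (median 57.2%), had 62 genes higher and 255 lower of 1341 tested, and a median log2 fold change of -0.16. Chromosome 4 (median 42.6%) had 138 higher and 51 lower of 727, with a median of 0.13. After the correction these medians were -0.06 and 0.01. Chromosome 19 still had 128 genes higher and 239 lower, whereas chromosome 4 had 114 and 94, and chromosome 13 changed from 56 higher and 19 lower of 317 to 40 and 41. Over 23 chromosomes the rank correlation of median change with median GC content was -0.844 as counted and -0.412 corrected.

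Long genes rose more often than short ones. In the decile of protein-coding genes with the longest genomic span (174 to 2305 kb), 377 of 1440 rose and 164 fell. In the shortest decile (0.207 to 5.69 kb), 102 rose and 248 fell. GC content was lower in long genes (rho -0.419), and with the correction the counts were 356 and 250 for the longest and 205 and 252 for the shortest decile. The rank correlation of change with span went from 0.243 to 0.0716.

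Genes with few CpG in their promoter were more often called higher than lower. The promoter window of 300 bases, from 250 before to 50 after the start, was available for 11556 protein-coding genes tested, of which 2017 rose and 1436 fell. With 0 to 2 CpG, 111 of 428 rose and 30 fell, and with 3 to 5 CpG, 137 of 596 rose and 55 fell. With 31 to 99 CpG, 763 of 3966 rose and 543 fell. Genes with few CpG were also expressed at lower levels. Among genes under 5 CPM with shNC, 127 of 602 with at most 5 CpG rose and 19 fell, while 277 of 2157 with 6 or more rose and 166 fell. The corrected counts were close to these (123 and 24, and 294 and 161). The median levels with shNC were 0.617 and 1.14 CPM, where few genes are called lower. At 5 CPM and over, 121 of 422 with at most 5 CpG rose and 66 fell. With 6 or more, 1492 of 8375 rose and 1185 fell. The corrected counts there were 116 and 96, and 1512 and 1828. Counts are given without a test.

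A small set of genes crossed between near silence and clear expression. Taking a group mean under 0.5 CPM as low and at least 2 CPM as high, 20 called genes (19 protein-coding) were low with shNC and high with shRAD21, and 19 (17 protein-coding) the reverse, of 2851 tested genes that were low and 13036 that were high with shNC. OR51E1, an olfactory receptor gene that is expressed outside the nose, had 4, 9 and 5 reads with shNC and 307, 299 and 210 with shRAD21. AGT, which encodes angiotensinogen, had 9, 5 and 2 reads against 66, 89 and 46. TXNIP, the thioredoxin inhibitor gene, had 2, 8 and 11 against 86, 60 and 33, and LYPD1 7, 7 and 7 against 43, 41 and 54. None of these 4 genes overlapped between groups, which the limits on the means favour in advance.

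Among the genes that fell to low levels, GREM1, a secreted inhibitor of bone morphogenetic proteins, had 75, 65 and 92 reads with shNC and 3, 3 and 3 with shRAD21 (log2 fold change -4.69). GRHL3, an epithelial transcription factor gene, had 65, 86 and 69 against 4, 10 and 6, and DRD1, the dopamine D1 receptor gene, 84, 85 and 48 against 2, 7 and 2. INHBA, which encodes the activin A subunit, had 47, 60 and 47 against 5, 10 and 5. PALM3, CALCRL and PCDH7 also fell to under 0.5 CPM. Every shRAD21 library was lower than every shNC library in all 7, which the same limits favour.

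**Figure D4:**
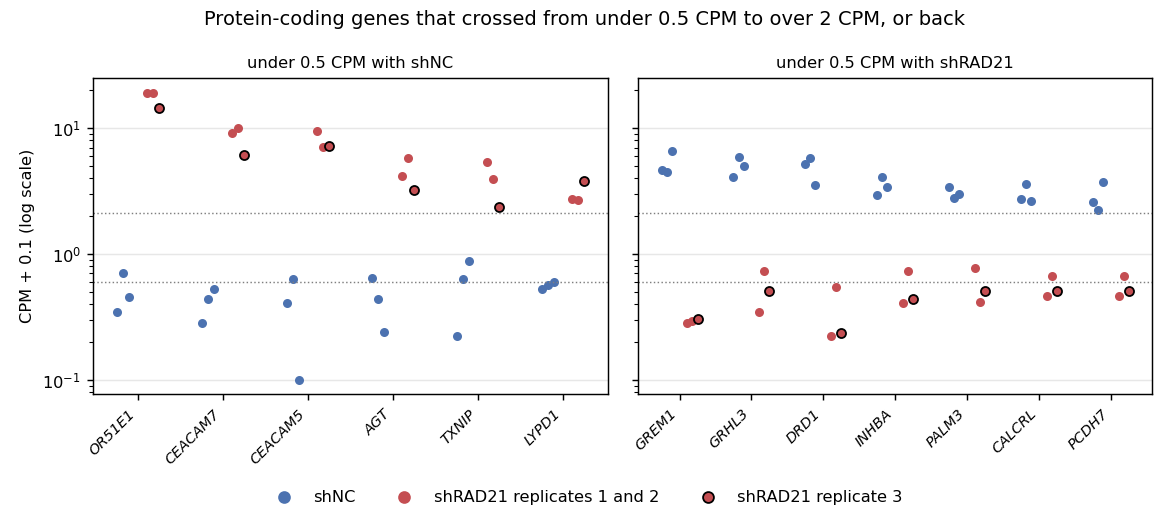
CPM plus 0.1 on a log axis in each A549 library (points) for the named protein-coding genes whose mean was under 0.5 CPM with shNC (left, 6 genes) and with shRAD21 (right, 7 genes). Dotted lines mark 0.5 and 2 CPM. The groups are separate in every gene shown, which the limits on the means favour.

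The 10 largest gains in CPM included KRT8 and KRT18, the keratin pair of simple epithelia. KRT18 went from 2541, 2670 and 2512 CPM to 4377, 4508 and 4931 CPM (log2 fold change 0.84, SE 0.05) and KRT8 from 4711, 4798 and 4531 CPM to 6706, 6810 and 8890 CPM (0.67). KRT7 had the largest loss, from 2663, 2528 and 2443 CPM to 1283, 1279 and 1821 CPM (-0.80). TRAM1, a translocon-associated membrane protein gene, had the largest fold among the 10 largest gains in CPM, from 393.8, 379.5 and 401.7 CPM to 1429, 1421 and 1116 CPM (1.76, SE 0.08).

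Among the largest losses, NTS, the neurotensin gene, went from 435.6, 476.9 and 459.8 CPM to 130.3, 121.6 and 78.31 CPM (-2.05). AKAP12, a scaffold for protein kinases A and C, went from 696.4, 684.1 and 693.6 CPM to 252.7, 260.4 and 227.4 CPM (-1.49). CLU, the secreted chaperone clusterin, went from 1048, 1023 and 996.1 CPM to 626.9, 615.2 and 612.6 CPM (-0.73). The largest gains and losses were taken only from called genes whose groups did not overlap. NTS, AKAP12 and CLU each kept their direction and their call after the correction. IGFBP4 was among the 10 largest losses as counted (-0.28), but was at -0.03 after the correction (adjusted p = 0.717), and without shRAD21 replicates 1 and 2 in turn its adjusted p was 0.0578 and 0.0675.

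Of 14396 protein-coding genes 30.2% were called. Of 21 mitochondrial transfer RNAs 8 rose (38.1%) as counted, but with the correction 3 rose and 4 fell. In each other noncoding biotype in which at least 20 genes were tested, at most 16.4% were called as counted. Median levels with shNC were 0.865 CPM for antisense RNAs and 0.653 CPM for lincRNAs, against 24.6 CPM for protein-coding genes. At 2 CPM or more with shNC, 33% of protein-coding genes were called, 30.6% of processed transcripts, 25.6% of lincRNAs and 14.6% of processed pseudogenes. Of 1275 antisense RNAs, 34 rose and 72 fell. Of the 328 with at least 2 CPM with shNC, 13 rose (3.96%) and 48 fell (14.6%), or 18 and 43 corrected. Among all genes tested at that level, 17.3% rose and 14.4% fell as counted, so only the share that rose was low in antisense RNAs. Of 1118 lincRNAs, 73 rose and 57 fell, and at that level 11.2% rose and 14.4% fell. Leaving out 1 library gave 38 to 128 antisense RNAs lower and 33 to 88 lincRNAs lower, with the highest counts without shRAD21 replicate 3. Processed pseudogenes (25 higher and 14 lower of 608) can take reads of their parent genes and are uncertain for that reason. Whether the counting used strand is not stated in the labels or notes, so antisense RNAs cannot be told apart from a sense partner where they overlap.

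LINC00632, annotated as antisense and the host transcript of a well-known circular RNA, fell from 12.32, 10.57 and 12.9 CPM to 2.08, 1.46 and 2.181 CPM (log2 fold change -2.64, SE 0.18). MEG3, an imprinted lincRNA, went from 50.32, 41.89 and 45.06 CPM to 27.77, 24.26 and 27.94 CPM (-0.78). LINC02532 rose from 2.623, 3.479 and 4.039 CPM to 25.38, 21.59 and 17.65 CPM (2.68). Groups were separate in all 3, as in 91% of all genes called higher and 88.1% of those called lower.

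Of the antisense RNAs named by the rule, 3 are given with a neighbour, examples chosen after their values were seen and not a tally. They overlap genes of the opposite strand over 2.05% (NR2F1-AS1), 11.9% (HOXA-AS2) and 17.9% (STARD4-AS1) of their exon length. NR2F1-AS1 went from 7.747, 11.11 and 8.998 CPM to 3.731, 3.746 and 2.113 CPM, and NR2F1, an orphan nuclear receptor gene, from 34.65, 36.4 and 37.55 CPM to 20.55, 21.27 and 15.88 CPM. HOXA-AS2 rose from 6.832, 6.156 and 8.219 CPM to 17.61, 15.68 and 13.7 CPM (1.15) in a run with HOXA2 (1.04) and HOXA3 (0.56). STARD4-AS1 (1.73) rose with STARD4 (0.93), a sterol carrier gene. Of 225 processed transcripts, 21 rose (9.33%) and 16 fell (7.11%), or 19 and 20 corrected. Among those that rose, SNHG14, a host gene of small nucleolar RNAs, went from 60.02, 59.15 and 62.14 CPM to 99.45, 96.83 and 79.06 CPM. DANCR, also among them, went from 27.14, 23.69 and 25.15 CPM to 43.36, 38.48 and 36.26 CPM. The pseudogene FER1L4 fell from 46.18, 44.63 and 48.25 CPM to 23.18, 29.78 and 26.04 CPM.

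Gene lists and families are described by the number called in each direction, to be read against 17.4% higher and 12.8% lower among all protein-coding genes. The corresponding shares were 17.8% and 18.2% with the correction, and 28.5% and 24% without shRAD21 replicate 3. Targets of NRF2, the transcription factor of the oxidative stress response that is constitutively active in A549, leaned up: 15 of 30 rose and 3 fell (corrected, 16 and 4, and without shRAD21 replicate 3, 8 fell). GPX2, a glutathione peroxidase gene, went from 152.2, 159.6 and 154.6 CPM to 377.4, 374.5 and 385.7 CPM (1.29), and AKR1C1 from 322.4, 327.7 and 332.4 CPM to 911.3, 869.6 and 624.8 CPM (1.29). GCLC, the catalytic subunit of glutathione synthesis, went the other way, from 286.9, 296.3 and 299.9 CPM to 199.3, 193.6 and 176.9 CPM (-0.63). The overlapping family of aldehyde dehydrogenases, aldo-keto reductases and glutathione transferases had 19 of 39 higher and 2 lower, with 12 higher without shNC replicate 3 and 6 lower without shRAD21 replicate 3. AKR1B10, which reduces retinal and other aldehydes, went from 3091, 3086 and 3003 CPM to 5042, 4908 and 5033 CPM, and ALDH1A1, a retinal dehydrogenase gene, from 5691, 6022 and 5854 CPM to 8743, 8717 and 7322 CPM (0.50, corrected 0.33). AKR1C1, AKR1C2 and AKR1C3 lie next to each other on chromosome 10, form one of the neighbourhoods and are similar in sequence, so reads may be shared among them.

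Genes of plasma proteins made by liver, and of endodermal identity, also leaned up. Of 27 plasma protein genes 13 rose and 3 fell (median log2 fold change 0.60), with 1 lower when any shNC library was left out. C3, complement component C3, went from 30.62, 28.04 and 31.74 CPM to 103.2, 98.99 and 100.1 CPM (1.74, SE 0.08), while APOE fell (-0.93). Of 21 lung and endoderm genes 9 rose and 3 fell, with 5 higher without shNC replicate 3 and 1 lower without shNC replicate 2 or shRAD21 replicate 2. HNF4A, a nuclear receptor of liver and gut, went from 56.61, 51.99 and 58.03 CPM to 100.1, 95.69 and 106.6 CPM (0.86), and its relative HNF4G rose from 1.83, 1.673 and 1.913 CPM to 6.361, 5.842 and 3.067 CPM. FOXA2 was lower as counted (-0.22) but at -0.02 after the correction.

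Of 35 collagen genes, 3 rose and 15 fell, with a median of -0.44. COL5A2, a fibrillar collagen gene, went from 493.9, 508.6 and 545.3 CPM to 217.2, 206.8 and 213.9 CPM (-1.28), and COL26A1 from 19.28, 19.6 and 20.19 CPM to 3.547, 3.81 and 5.725 CPM (-2.18). The 3 that rose were all type IV basement membrane collagens: COL4A3 (1.26) and COL4A4 (1.33), a divergent pair on chromosome 2, and COL4A1 (0.48). COL4A4 went from 35.2, 35.19 and 32.31 CPM to 92.11, 90.87 and 74.9 CPM. Of 10 laminin genes, 2 rose and 4 fell: LAMB3 rose (1.05) and LAMA3, with which it forms the laminin of epithelial hemidesmosomes, fell (-1.64).

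Of 22 integrin genes, 3 rose and 7 fell. ITGB5 went from 533.6, 552.3 and 540.2 CPM to 208.6, 216.4 and 257.5 CPM (-1.25), and ITGAV, the alpha subunit with which it pairs, from 368, 346.1 and 391.4 CPM to 257.9, 242.5 and 178 CPM. ITGB6, the epithelial partner of ITGAV, rose from 6.283, 4.751 and 6.518 CPM to 23.36, 19.56 and 16.22 CPM (1.75). Of 15 claudins tested, 1 rose and 2 fell (corrected, 1 and 1). The 1 that rose, the pore-forming claudin gene CLDN2, went from 29.89, 35.19 and 34.65 CPM to 189.2, 191 and 179.8 CPM (2.49, SE 0.08). Of 12 mucins tested 4 rose, and MUC5AC, a gel-forming airway mucin, went from 531.5, 495.7 and 539.2 CPM to 999.6, 1016 and 886.2 CPM. Guidance molecules leaned down as counted (9 of 44 semaphorins, plexins, netrins and slits rose and 16 fell) and were even after the correction (12 and 12). Without shNC replicate 2, 10 fell. NTN4, a basement membrane netrin, went from 152.6, 152 and 153.3 CPM to 47.52, 47.37 and 37.69 CPM (-1.79).

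Signalling lists were mixed. Of 26 NF-kB outputs and chemokines, 4 rose and 10 fell. NFKB2 went from 145.9, 123 and 128.9 CPM to 47.22, 45.15 and 70.47 CPM (-1.29) and the inhibitor gene NFKBIA fell (-0.73), while CCL2 (1.20) and CXCL2 (1.22), both chemokine genes on the same list, rose. CSF1, the macrophage growth factor gene, went from 63.32, 56.87 and 61.36 CPM to 19.08, 18.41 and 20.72 CPM. Of 38 receptor tyrosine kinases, 12 rose and 8 fell, with 7 higher without shNC replicate 1 or 3. NTRK3, a neurotrophin receptor gene, went from 104.2, 108.6 and 110.9 CPM to 357.6, 358.1 and 315.8 CPM (1.67), ERBB3 rose (1.60) and ROR1 fell (-0.88). Of 10 EGF family ligands tested, 3 rose, among them TGFA (1.43), and AREG fell (-0.68).

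Metabolic lists also held opposite members. Of 33 glycolysis and hypoxia genes, 5 rose and 10 fell (corrected, 6 and 16, and without shRAD21 replicate 3, 16 fell). The glucose transporter gene SLC2A3 went from 238.9, 237.1 and 253.8 CPM to 78.17, 82.48 and 68.56 CPM (-1.67), and EGLN3 (-1.02) and NDRG1 (-0.78), both hypoxia-induced, fell. CA9, another hypoxia-induced gene, rose from 0.61, 1.873 and 1.7 CPM to 8.746, 9.207 and 8.724 CPM (2.69). Of 25 sterol genes 10 rose (9 corrected). Among ABC transporters, 8 of 36 rose and 6 fell. The lipid exporter gene ABCA1 went from 44.47, 45.83 and 44.21 CPM to 11.13, 12.32 and 9.883 CPM (-2.01) and ABCG2, a drug efflux pump gene, from 112.8, 113.2 and 117.9 CPM to 47.4, 43.31 and 41.57 CPM (-1.38).

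Of 86 cytosolic ribosomal protein genes 4 rose and 12 fell, with a median of -0.05. Of 477 zinc finger genes of the ZNF series 42 rose and 25 fell, but with the correction 32 rose and 50 fell. Proteasome subunits had 2 of 38 higher and 7 lower as counted, and 1 and 18 with the correction, though the median stayed small (-0.07 and -0.14). These counts rose without shRAD21 replicate 3, to 36 ribosomal protein genes lower, 18 proteasome genes lower and 89 ZNF genes higher, and leaving out another library gave as few as 2, 3 and 22. PSMB8, an immunoproteasome subunit, was 1 of the 2 that rose (0.88). Of 19 genes of MHC class I presentation, 6 rose and 3 fell (corrected, 9 and 3). B2M, the light chain of MHC class I, was among those that rose (0.74). Of 27 clustered histone genes tested 4 fell.

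**Figure D5:**
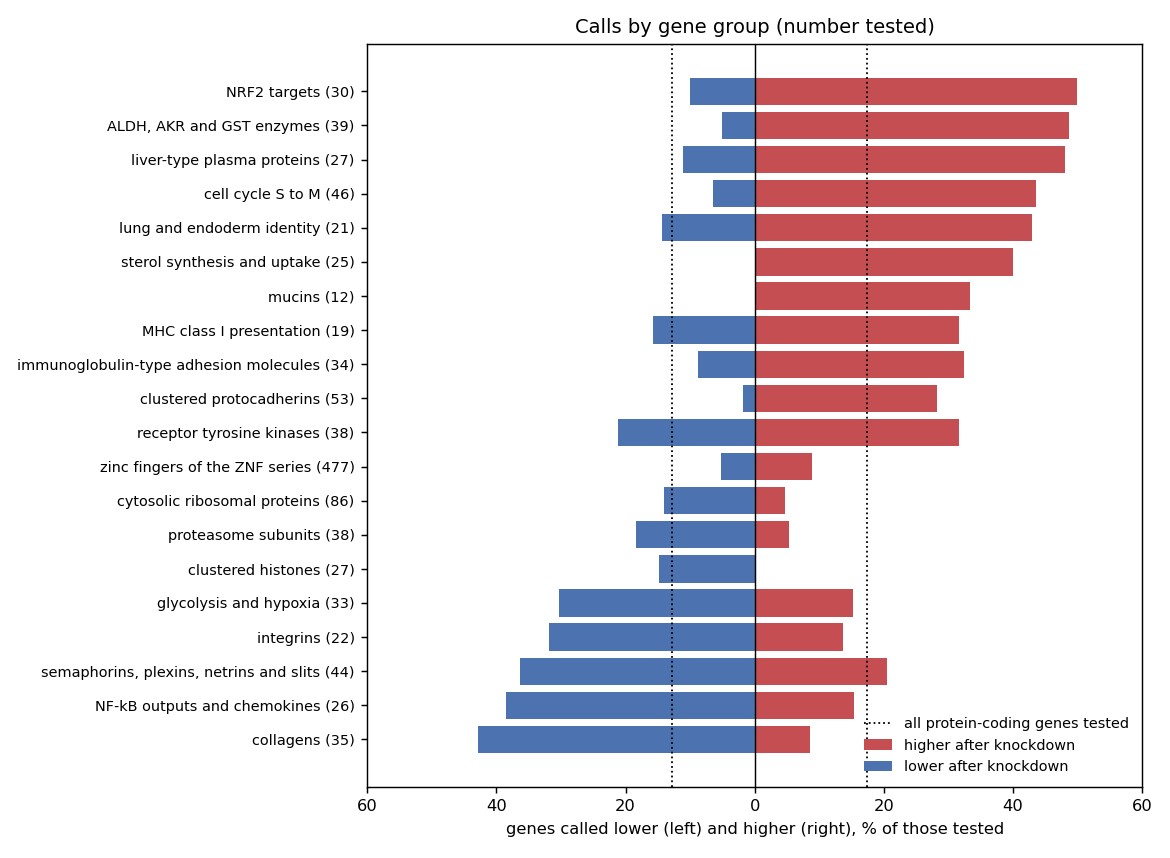
Share of the tested genes of each group called lower (left) and higher (right) after knockdown, as counted, with the number tested in brackets. Dotted lines mark the 12.8% lower and 17.4% higher of all protein-coding genes, which collagens pass to the left and NRF2 targets to the right.

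The knockdown in H358, where RAD21 fell by 0.51 on the log2 scale, is given only for contrast. Of the same 18939 genes, 1591 (8.4%) were called in H358, and the difference between the 2 knockdowns passed the test for 3325 genes (17.6%). The lines differ in the depth of the knockdown as well as in genotype, and these cannot be told apart. CEACAM6 rose less in H358 (difference H358 minus A549 -3.69, adjusted p = 2.59e-08), and TRIM31 and GBP3 differed by -3.35 and -3.28. SUSD2, which fell in A549, rose in H358 (log2 fold change 1.18), a difference of 2.84 (adjusted p = 1.13e-08). APLP1 differed by 1.67 and TGFA by -1.94. For KIF26A (0.40, adjusted p = 0.413) and CP (-0.19, adjusted p = 0.635) the difference did not pass the test.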

How the data were processed

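Total RNA was sequenced from 3 shNC and 3 shRAD21 libraries each of A549 and H358. Per the submitters' processing notes, the tools were fastp, HISAT2 2.0.5 and featureCounts 1.5.0-p3 on hg38, and the authors deposited raw read counts per gene, which are whole numbers. All 58735 genes had the exon lengths of GENCODE 29, which gave positions and biotypes. The 12 libraries were fitted together in edgeR 4.0.16 (quasi-likelihood test, TMM scaling, filterByExpr, 1 mean per group, R 4.3.3), with Benjamini-Hochberg adjustment over 18939 genes and calls at an adjusted p under 0.05. Values printed per library are counts per 1000000 (CPM) with TMM scaling. The correction removed each library's smooth trend (natural spline) of log counts, relative to the mean of its cell line, on exon GC content and then on exon length, as offsets. Alternatives used DESeq2 1.42.0, limma 3.58.1 (voom), other filters, a replicate block and each A549 library left out. The model was tested on simulated data.

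Genes were named by fixed rules. The 10 largest gains and losses in CPM were taken among called protein-coding genes whose groups did not overlap. Also named were members of the 8 neighbourhoods with the largest median change in each direction, and up to 8 switched genes each way. In each biotype, list or family, up to 3 genes a direction with the smallest adjusted p were named, with all cohesin genes. Marker genes were fixed too. Flanking genes (AC243960.2, RPS19, TRIM26, MYADM, PRODH2) were named after their values were seen. Some members that the rules name are not reported here. The members, rules and lists were chosen with earlier results of these data known. Promoter sequences are RefSeq's on GRCh38.p14, matched by symbol and chromosome for 19103 genes. No count column lacked a sample. Total counts were 15155077 to 18446250 per A549 library, so values under 1 CPM rest on few reads.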

Additional observations from a re-analysis of the deposited data

Results flagged for a closer look

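The fold change differed between the 2 cell lines, by a test of the difference itself (H358 minus A549, edgeR, over all genes), for RAD21 and for the gene with the largest change in 6 of the 16 neighbourhoods described. Over all genes tested, 17.6% differed. The neighbourhood genes were picked for their change in A549, which favours a difference. Some of them, such as UGT1A2P and SLC17A3, had no counts in H358 and so no value for the difference. RAD21 fell less in H358, by a difference of 0.57 on the log2 scale (adjusted p = 0.00228). CEACAM5 differed by -4.61 (adjusted p = 4.42e-06), TRIM10 by -3.02 (adjusted p = 0.0385) and GBP1 by -3.66 (adjusted p = 3.07e-06). ITIH2 differed by -2.88 (adjusted p = 0.00769) and CRB3 by -2.09 (adjusted p = 1.43e-05). These 5 genes rose in A549 in all 3 shRAD21 libraries and did not pass the test in H358, where their log2 fold changes lay between -0.28 and 0.53. SUSD2 differed by 2.84 (adjusted p = 1.13e-08), falling in A549 and rising in H358 (1.18, adjusted p = 7.98e-05). The depth of the knockdown and the line cannot be told apart. Groups of 3 libraries were not tested for outlying samples.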

How the results depend on the processing

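Of 135 named genes that were called, 121 kept their direction and call under every alternative that tested them, 14 lost the call under at least 1, and 2 of those 14 were reversed. With only the 6 A549 libraries, 1649 genes were higher, and no value could be given for the difference between lines. Leaving out each A549 library in turn gave 2003 to 4537 genes higher, 1410 to 3893 lower and 2286 to 7348 differing between lines, each highest without shRAD21 replicate 3. That library left out with the correction, an alternative chosen after seeing the data, gave 3136 higher, 3352 lower and 5260 differing between lines, and reversed FOXA2 (0.12) and IGFBP4 (0.03). RAD21 lay between -0.97 and -1.14 with 1 library left out. Of 2 cohesin subunits that did not pass, SMC1A went to -0.04 and SMC3 to -0.04 with the correction, to -0.04 and -0.05 with the block and correction, and to -0.07 and -0.04 with the correction and without shRAD21 replicate 3. AC243960.2, a low-count gene that did not pass, went from 0.13 to between -0.10 and 0.29 with 1 library left out (-0.08 without shRAD21 replicate 3) and to -0.02 when that library was left out with the correction. The cause of these changes was not tested. With no minimum fold there were 104 rising and 87 falling neighbourhoods, with at least 2-fold changes 7 and 6, with no filter on low counts 17 and 27, with a filter of 10 CPM 22 and 14, with the block and the correction 24 and 23, and among protein-coding genes alone 34 and 21.

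A fit with a replicate block called 2378 genes higher, 1866 lower and 2661 differing between lines, with RAD21 at -1.09. With the block and the correction there were 2635, 2732 and 3813. The labels do not say that the numbers pair the libraries, and the correlation of the deviations of same-numbered A549 libraries from their group means was -0.133, -0.0746 and -0.222.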
